A study of Caenorhabditis elegans with 3 samples.

Results

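Nuclear hormone receptors are transcription factors with a zinc-finger DNA-binding domain and, in most members, a ligand-binding domain. The genes described here are all protein-coding genes of Caenorhabditis elegans whose symbol begins with nhr- in the Ensembl annotation of the WBcel235 assembly, which is the ce11 build. There are 269 of them among 19973 protein-coding genes. Each gene was given a window from 5000 bp upstream of its first transcript start to the gene end, and was described by the regions of MML-1 ChIP-seq whose summit lay in that window. The family was compared with the other 19704 protein-coding genes, treated in the same way. Of the 269 genes, 244 had any region of the pooled list, or 90.7%, against 88.5% of the other genes. The 25 genes without a region lay on chromosomes V (14), I (5), II (3) and IV (3).

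MML-1 binding was measured by chromatin immunoprecipitation and sequencing in whole worms at the L3 stage, both sexes pooled per the labels, with 3 biological replicates and no second condition. All 3 come from strain OP198, which carries unc-119(ed3) III and the integrated transgene wgIs198, from which MML-1 is expressed with a GFP-FLAG tag, so that binding of the tagged transgenic protein was measured. The labels give replicates 1 and 2 a fragment size range, and replicate 3 a sonication step and another source of worms. The authors deposited ranked regions for each replicate (30000, 30000 and 27021 for replicates 1, 2 and 3), 30000 regions called on the replicates together, and 195 reproducible peaks, which are ranks 1 to 195 of that pooled list.

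Rank 1 is the region of highest signal within its list. The signal is the authors' value on the scale of that list, and read totals were not given, so depth is unknown. Pooled regions below rank 195 did not pass the authors' reproducibility threshold and are reported as ranked regions, not as binding sites. The 3 samples form 1 group, so nothing was tested between conditions, and shares of genes were set side by side without a test. Exact Clopper-Pearson intervals at the 95% level beside the shares cover the number of genes only. They count each gene as separate, although some genes share a region, and are too narrow where this is so.

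C. elegans has a greatly expanded family of nuclear hormone receptors. A small part of it has clear counterparts in insects and mammals, and most of the rest descends from an HNF4-like ancestor. Well-studied members regulate fat metabolism, moulting, developmental timing and detoxification. MML-1 is the worm member of the Mondo family of helix-loop-helix leucine zipper factors, which bind DNA as dimers with a Max-like partner at E-boxes, of which CACGTG is the canonical form.

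Reproducible peaks of MML-1 lay in the windows of 4 nhr- genes, which were nhr-35, nhr-19, nhr-105 and nhr-119. That is 1.49% of the family (interval 0.407 to 3.76), against 1.19% of the other protein-coding genes (235 of 19704, interval 1.05 to 1.35), so the share was near the background. In all they held 5 peaks, a pair of them at nhr-35, and the nearest protein-coding transcript start of each was that of the nhr- gene itself. CACGTG lay within 100 bp of the summit at the peaks of nhr-19, nhr-105 and nhr-119, and at neither peak of nhr-35.

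The CACGTG sites at these genes, and at a peak just outside the window of nhr-46, are shown because these peaks, unlike those of nhr-35, share this hexamer. Each is printed on the strand of the gene with 20 bases on either side, from the RefSeq copy of WBcel235 (ce11), and capitals mark CACGTG.
nhr-19, chrII:9603667-9603712, minus strand: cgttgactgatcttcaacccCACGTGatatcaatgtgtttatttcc
nhr-105, chrIV:7047791-7047836, plus strand: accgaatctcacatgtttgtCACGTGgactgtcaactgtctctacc
nhr-119, chrII:2803083-2803128, minus strand: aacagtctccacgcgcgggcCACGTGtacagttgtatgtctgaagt
nhr-46, upstream peak, chrIV:5762881-5762926, minus strand: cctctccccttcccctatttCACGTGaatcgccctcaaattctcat
The centre of the site lay 30.5 bp from the summit at nhr-19, 1.5 bp at nhr-105, 11.5 bp at nhr-119 and 86.5 bp at nhr-46. The summit window of nhr-105 held 2 CACGTG sites. Among all 30000 pooled regions CACGTG was present within 100 bp of the summit in 4.67%, and among the 195 reproducible peaks in 116, or 59.5%.

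The distal peak of nhr-35 is shown for 100 bp on either side of the summit because it is the highest region of the family and stands without CACGTG. Capitals mark CAGATG, its only match to the general E-box CANNTG, which was searched on both strands.
nhr-35, distal peak, chrX:4530494-4530694, plus strand: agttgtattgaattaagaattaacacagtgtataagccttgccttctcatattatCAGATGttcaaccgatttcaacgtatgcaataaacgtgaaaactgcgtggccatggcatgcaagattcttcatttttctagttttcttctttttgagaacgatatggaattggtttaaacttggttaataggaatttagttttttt
Of all pooled regions, 59.1% held a CANNTG, 7.97% held CACATG and 9.32% held AGAGAC within 100 bp of the summit. Of the reproducible peaks, 90.3% held a CANNTG, 30.8% held CACATG and 37.9% held AGAGAC. A match is a description of the letters in this window and does not show which factor was bound.

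The receptor gene nhr-35 (WBGene00003628, chromosome X, 4532691 to 4537546) had the highest region of the family. Its distal peak was intergenic, 2097 bp upstream of the start, with a signal of 271.3. That site ranked 10 in the pooled list and 6, 4 and 783 across replicates 1, 2 and 3. It was therefore among the first 10 regions in replicates 1 and 2 and far lower in replicate 3. The proximal peak ranked 77 in the pooled list and 73, 86 and 102 in replicates 1, 2 and 3. It differed little in rank between replicates, and in replicate 3 it stood above the distal one. A further region 3526 bp upstream ranked 430, without passing the authors' threshold, and 3 weaker regions of the window ranked between 1620 and 10571.

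In nhr-19 (WBGene00003618, chromosome II, 9598180 to 9605526) the reproducible peak was intronic, 1591 bp into the gene from a transcript start, with a signal of 57.7. It ranked 61 in the pooled list and 77, 85 and 60 in replicates 1, 2 and 3. The window held 12 pooled regions in all. The next highest, also intronic and 3943 bp downstream of a start, ranked 369 in the pooled list but 8606, 743 and 1607 in replicates 1, 2 and 3.

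The peak of nhr-105 (WBGene00003695, chromosome IV, 7050156 to 7053450) lay 2344 bp upstream, in intergenic sequence that also falls in the window of tin-9.1. Its signal was 57.6, and it ranked 63 in the pooled list and 53, 50 and 85 in replicates 1, 2 and 3. Its summit window held CACATG and AGAGAC beside CACGTG. A second upstream region with CACGTG, 1083 bp from the start, ranked 4682 in the pooled list and was matched within 200 bp only in replicate 1, at rank 28222.

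At nhr-119 (WBGene00003709, chromosome II, 2794016 to 2800600) the peak lay 2517 bp upstream with a signal of 33.3. It ranked 124 in the pooled list and 2206, 1445 and 84 in replicates 1, 2 and 3. The rank in replicate 3 was thus far above those in the other replicates. A region 445 bp upstream, at pooled rank 469, had the same pattern, with rank 1256 in replicate 1, no match in replicate 2 and rank 210 in replicate 3.

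**Figure D1:**
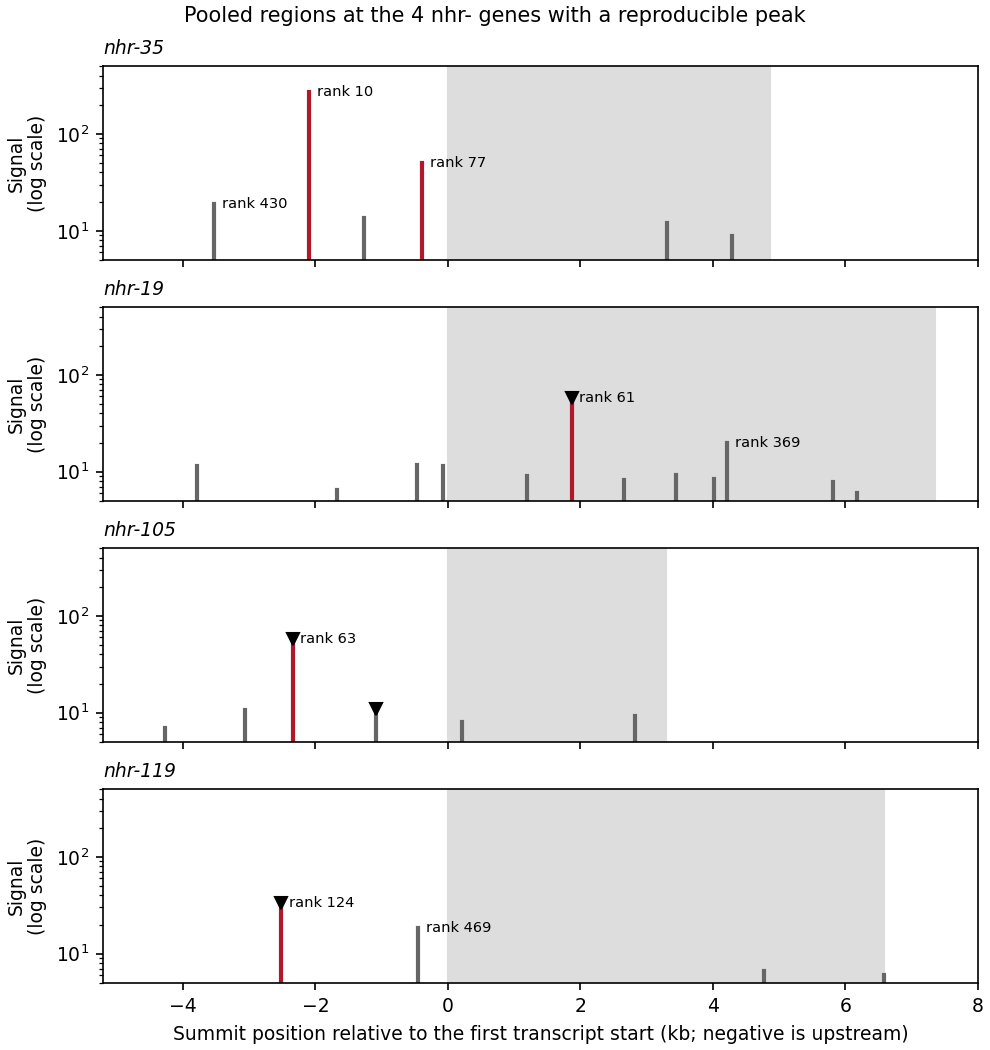
Pooled regions in the windows of the 4 nhr- genes with a reproducible peak. The horizontal axis is the distance of the summit from the first transcript start in kb, the vertical axis the authors' signal on a log scale, grey shading the gene body, red lines reproducible peaks, grey lines other pooled regions and black triangles CACGTG within 100 bp of the summit. The distal peak of nhr-35, at rank 10, is the highest and has no triangle, and those at ranks 61, 63 and 124 have one.

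The gene nhr-46 (WBGene00003636, chromosome IV, 5747363 to 5757862) was the closest to joining them. A reproducible peak at 5762848 to 5763131 lay 5128 bp upstream of its start, so that the peak reached into the window but its summit did not. It had nhr-46 as the nearest protein-coding gene, held CACGTG and ranked 184 in the pooled list and 1249, 371 and 168 in replicates 1, 2 and 3. Within the window nhr-46 had 3 intronic regions at pooled ranks 222, 550 and 876, of which the first and second held CACGTG. The site at rank 222 ranked 1758, 128 and 2167 in replicates 1, 2 and 3. The site at rank 550 ranked 20532, 25375 and 404.

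Below the reproducible set, regions were counted down to rank 1000. A pooled region of rank 1 to 1000 lay in the windows of 29 nhr- genes, or 10.8% (interval 7.34 to 15.1), against 6.55% of the other protein-coding genes (1290 of 19704, interval 6.21 to 6.90). Counted by region, the family's windows, merged where they overlap, held 19.8 regions of rank 1 to 1000 per Mb, against 10.03 per Mb in the merged windows of the other genes. For regions of any rank the densities were 338 and 305 per Mb. The best region of the 244 nhr- genes with one had a median rank of 6961 (quartiles 2591 and 14122), against 7734 (3399 and 14596) for the other genes. Median window lengths were 7309 bp and 7018 bp. No test was made of the family against other genes, so nothing particular to it is read from these shares.

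**Figure D2:**
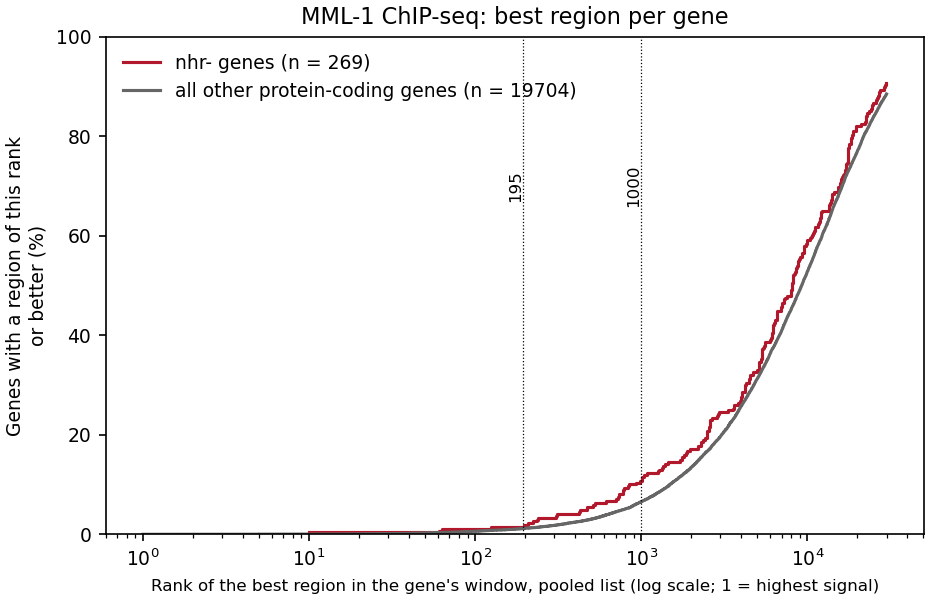
Cumulative share of genes by the pooled rank of the best region in the window, on a log scale, for the 269 nhr- genes (red) and the other 19704 protein-coding genes (grey). Dotted lines mark rank 195, where the reproducible peaks end, and rank 1000. The curves lie close together up to rank 195, at 1.49% and 1.19%, and stand at 10.8% and 6.55% at rank 1000.

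These 29 genes were marked by 37 separate regions of rank 1 to 1000. By annotation of the summit, 21 were intergenic, 14 lay in introns, 1 in a 5′ UTR (nhr-104) and 1 in the coding sequence of another gene, T26E4.7, within the window of nhr-223. An nhr- gene had the nearest protein-coding start at 33 of the 37. Counting genes by their best region, 24 of the 29 nhr- genes were themselves nearest to it, or 82.8%, against 51.5% of the 1290 other genes with a region of rank 1 to 1000. The best region also lay in the window of another gene for 44.8% of the nhr- genes and 71.2% of the others. In the nhr- group, 9 genes had 2 or more regions of rank 1 to 1000, or 3.35% of the family, against 0.929% of the other genes, and nhr-35 and nhr-46 had 3 each.

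Some of these genes share a site, so they do not count as separate observations. The adjacent genes nhr-84 and nhr-102 on chromosome V share the region at rank 470, which lay 1281 bp upstream of nhr-84 and 4481 bp upstream of nhr-102. The region at rank 737, 350 bp upstream of nhr-42, also lay in the window of nhr-107. That at rank 774 lay in an intron of nhr-124 and 3453 bp upstream of nhr-159.

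E-boxes were found at several regions between ranks 196 and 1000. Of the 25 nhr- genes whose best region lay there, 6 had CACGTG, or 24.0% (interval 9.36 to 45.1), against 12.3% of 1055 other genes. Together with the reproducible set, the share was 9 of 29, or 31.0%, for nhr- genes and 258 of 1290 for other genes. From rank 1001 to 5000 it was 0 of 60 nhr- genes, which allows a share of up to 5.96%, against 4.09% of the other genes. Over all best regions CACGTG was present in 4.92% for nhr- genes (12 of 244) and 5.17% for other genes, CACATG in 12.7% and 8.24%, and AGAGAC in 10.7% and 9.62%. Among the 37 regions CACGTG was present at 5 of the 14 in introns and 5 of the 21 between genes. It was also present at the region in the 5′ UTR of nhr-104. The hexamer lay at 11 of the 37, or 29.7%, against 22.9% of the 963 regions of rank 1 to 1000 outside nhr- windows.

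The sites at the 6 genes are printed in the same way as above, with CACGTG in capitals, and are shown because they are the best regions with this hexamer between ranks 196 and 1000. The site nearest to the summit is given for each, and a second site of nhr-46, at rank 550, is added.
nhr-32, chrX:13251599-13251644, plus strand: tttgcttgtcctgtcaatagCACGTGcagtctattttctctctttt
nhr-46, rank 222, chrIV:5756077-5756122, minus strand: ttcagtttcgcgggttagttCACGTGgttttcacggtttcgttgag
nhr-31, chrIV:8028498-8028543, minus strand: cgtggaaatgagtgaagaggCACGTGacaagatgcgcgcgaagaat
nhr-34, chrIV:9677832-9677877, minus strand: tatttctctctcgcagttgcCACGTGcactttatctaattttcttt
nhr-104, chrIV:4788496-4788541, minus strand: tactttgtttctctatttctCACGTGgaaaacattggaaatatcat
nhr-46, rank 550, chrIV:5753545-5753590, minus strand: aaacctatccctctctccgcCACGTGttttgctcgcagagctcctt
nhr-97, chrIV:9761878-9761923, plus strand: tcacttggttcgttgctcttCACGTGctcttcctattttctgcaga
The flanking bases differed between the sites. The centres of those of nhr-31 and nhr-97 lay 9.5 bp and 31.5 bp from the summit, and those of nhr-32 and nhr-104 lay 51.5 bp and 50.5 bp from it.

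Replicates did not rank these sites alike. The region of nhr-32 at rank 198, 394 bp upstream and just below the reproducible set, ranked 125 and 133 in replicates 1 and 3 and 22038 in replicate 2. The CACGTG region in an intron of nhr-31, 906 bp downstream of a start, ranked 237 in the pooled list but 7624, 13375 and 2156 in replicates 1, 2 and 3. NHR-31 promotes growth of the excretory tube through genes of the vacuolar ATPase. The site of nhr-34, 2149 bp upstream, ranked 4917 and 193 in replicates 2 and 3, and replicate 1 lacked a match within 200 bp. Those of nhr-104 and nhr-97 lay outside the first 1000 regions in every replicate, with ranks from 2678 to 10881. An overlapping non-coding RNA gene, C26B2.12, is annotated at the nhr-31 summit.

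**Figure D3:**
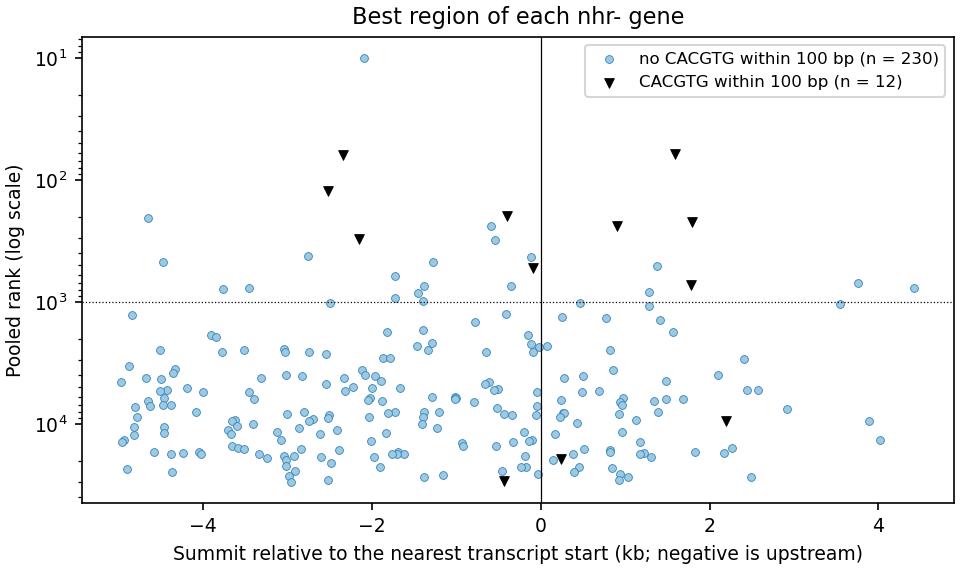
Best pooled region of each nhr- gene, by distance of its summit from the nearest transcript start in kb and by pooled rank on a log scale with rank 1 at the top. Black triangles have CACGTG within 100 bp of the summit (n = 12), blue points do not (n = 230), and 2 genes whose best region lay more than 5 kb from a start are not drawn. Of the 12 triangles 9 lie above the dotted line at rank 1000, on both sides of the start, while the highest point, that of nhr-35, is blue.

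Agreement between the replicates was examined site by site. Of the 37 regions, 4 were matched by a top 1000 region of every replicate with a summit within 200 bp, or 10.8%, and these were both peaks of nhr-35 and those of nhr-19 and nhr-105. A further 5 were matched in 2 replicates, 18 in 1 and 10 in none. In shares, 10.8%, 13.5%, 48.6% and 27.0% of the 37 were matched in 3, 2, 1 and no replicates, against 11.7%, 17.5%, 41.5% and 29.2% of the 963 pooled regions of rank 1 to 1000 outside nhr- windows. Replicates 1, 2 and 3 matched 16, 10 and 14 of the 37.

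The 5 regions matched in 2 replicates were those of nhr-32 at rank 198, of nhr-20 at 207, of nhr-255 at 238, of nhr-84 and nhr-102 at 470 and of nhr-10 at 987. The site of nhr-20, 4658 bp upstream, ranked 297, 4990 and 96 in replicates 1, 2 and 3. That of nhr-255, 591 bp upstream, ranked 597, 792 and 17099. At nhr-84 and nhr-102 the ranks were 323, 6688 and 181. Replicate 2 was the low one in 3 of these 5 regions, replicate 3 at nhr-255, and at nhr-10 replicate 1 had no region within 200 bp.

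Regions matched in 1 replicate made up most of the rest. At nhr-17 the best region, 2757 bp upstream at pooled rank 420, ranked 2485, 6972 and 1412 in replicates 1, 2 and 3, while an intronic one at rank 541, nearer to nlp-76, ranked 206 in replicate 1 and was unmatched in replicate 3. The intronic region of nhr-3 at rank 512 ranked 207 in replicate 1 and 21511 in replicate 3, with no match in replicate 2. A second upstream region of nhr-32, at rank 224, ranked 129, 4122 and 4330. At these 3 sites replicate 1 alone gave a rank within the first 1000.

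The region in the window of nhr-223, at rank 615, ranked 515 in replicate 1, and that of nhr-135, at rank 783, ranked 877 in replicate 1. At nhr-21 it was replicate 2 that gave the high rank, 213, for a region 1451 bp upstream at pooled rank 844. The region of nhr-175, at rank 929, was within the first 1000 in no replicate, with ranks of 9243 and 11679 in replicates 1 and 2.

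**Figure D4:**
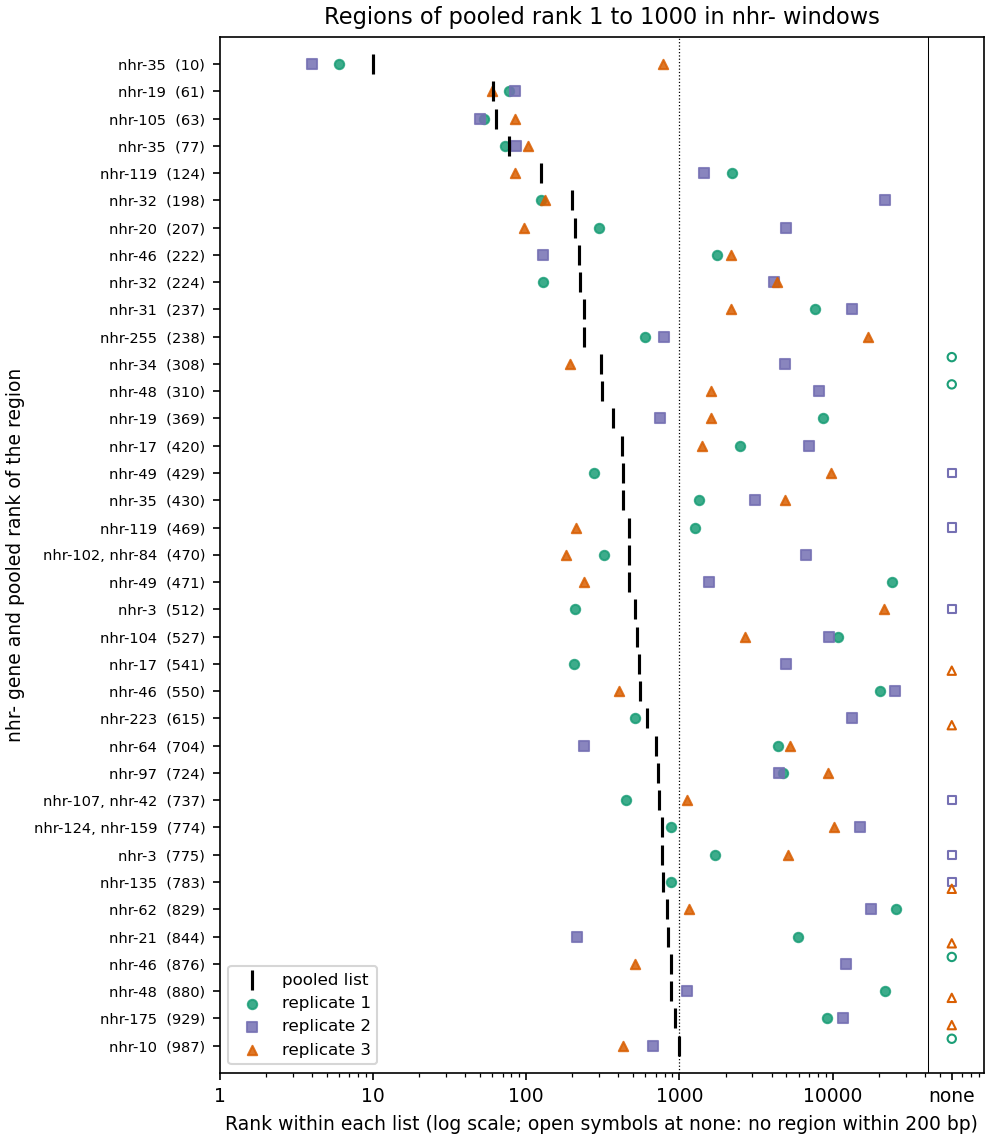
Ranks of the 37 regions of pooled rank 1 to 1000 in nhr- windows. Rows are regions, labelled by nhr- gene and pooled rank, and the horizontal axis is the rank within each list on a log scale, with black bars for the pooled list, circles, squares and triangles for replicates 1, 2 and 3, and open symbols where a replicate had no region within 200 bp. The symbols lie together at nhr-19, nhr-105 and the proximal peak of nhr-35 and lie farther apart at many other regions, as at rank 198 (nhr-32), where they run from 125 to 22038.

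A gene can also have a top 1000 region in each replicate at separate sites, which does not show that a site is shared. By the best region anywhere in the window, 4 nhr- genes had a top 1000 region in each replicate, or 1.49% (interval 0.407 to 3.76), against 1.00% of the other protein-coding genes, a share near the background. They were nhr-35, nhr-19, nhr-105 and nhr-46, and for nhr-46 the best ranks were 816, 128 and 404 in replicates 1, 2 and 3. Those of nhr-46 lay at separate sites. Its window of 15500 bp held 15 pooled regions, and the median window of the family was 7309 bp. A further 13 nhr- genes had one in 2 replicates (4.83%, against 2.29% of the others). In 1 replicate it was 44 (16.4%, against 13.7%), and 208 had one in none (77.3%, against 83%). By replicate, 9.67%, 9.29% and 11.5% of nhr- genes had a top 1000 region in replicates 1, 2 and 3, against 7.02%, 7.49% and 6.75% of the other genes.

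Receptors of fat and energy metabolism were looked at as a group, from a list of 12. A pooled region of rank 1 to 1000 lay at 4 of them (33.3%, against 10.8% in the family and 6.55% of other genes), which were nhr-49, nhr-64, nhr-62 and nhr-10. A list of 12 genes, chosen with earlier results of these data known, is too small to set this share against the others. None had a reproducible peak or CACGTG at the best region. A reproducible peak lay at 1.19% of other genes, and 5.17% of those with a region had CACGTG, shares at which a list of this size may well hold none. NHR-49, the best-known regulator of fatty acid oxidation and desaturation in the worm, had a pair of regions on chromosome I. One lay 110 bp upstream of an internal transcript start, at pooled rank 429, and also fell in the window of inx-20. It ranked 278 in replicate 1, had no match in replicate 2 and ranked 9735 in replicate 3. The other lay 368 bp upstream of the gene, at pooled rank 471, and ranked 24586 and 1567 in replicates 1 and 2 and within the first 1000 in replicate 3. The replicates thus placed their high-ranked signal at different sites of this gene. The median best rank of the list was 3087, with a median window of 8786 bp.

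NHR-62, which is required for the longer life of worms under dietary restriction, had an intronic region 1286 bp downstream of the start at pooled rank 829. It ranked 25991, 17908 and 1158 in replicates 1, 2 and 3. In nhr-64, which encodes an HNF4-like receptor linked to fat synthesis, an intronic region at rank 704 ranked 4399, 237 and 5235. Its summit was nearer to a start of C45E1.5, 2657 bp away, than to one of nhr-64, 3756 bp away. NHR-10 and NHR-68 act together in switching on an alternative route of propionate breakdown. The region of nhr-10, 1396 bp upstream at pooled rank 987, was absent within 200 bp in replicate 1 and ranked 676 and 428 in replicates 2 and 3. That of nhr-68 lay just past the limit, at rank 1017, and was nearer to pms-2. At nhr-80 and nhr-13, which encode receptors that act with or beside NHR-49, the best ranks were 17497 and 22769, and at nhr-66, which encodes a partner of NHR-49, the best rank was 1880.

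Of 11 receptors conserved beyond nematodes, all had a pooled region, as had 90.7% of the family and 88.5% of other genes. A region of rank 1 to 1000 lay at 1 of them (9.09%, against 10.8% in the family and 6.55% of other genes). None had a reproducible peak or CACGTG at the best region. A reproducible peak lay at 1.19% of other genes, and 5.17% of those with a region had CACGTG. At such shares 11 genes may well hold none. The gene with a high-ranked region was nhr-48, a relative of the steroid receptor gene daf-12, with an intergenic region 542 bp upstream at rank 310, unmatched in replicate 1 and at ranks 8163 and 1596 in replicates 2 and 3. A second region of nhr-48, at rank 880, held CACGTG 94.5 bp from the summit. The median best rank of the list was 1709, with a median window of 10472 bp, against 7309 bp in the family.

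Receptors of moulting and development overlap with that list. Of 11, all had a region, beside 90.7% of the family and 88.5% of other genes. Only nhr-31 had one of rank 1 to 1000, again 9.09% beside 10.8% in the family and 6.55% of other genes. NHR-25, the worm counterpart of Ftz-F1 and needed for moulting and epidermal cell fate, had its best region 414 bp upstream at rank 1266, which was unmatched in replicate 1 and ranked 1748 and 15193 in replicates 2 and 3. NHR-23, the ROR counterpart that drives the moulting cycle, had one at rank 1338 in an intron, and NHR-85, related to E75 and Rev-erb, one at rank 3641. The site of nhr-23 ranked 6576, 19865 and 17103 in replicates 1, 2 and 3. That of nhr-85 ranked 11858 and 25252 in replicates 1 and 3 and was unmatched in replicate 2. At nhr-67, the tailless counterpart that acts in the anchor cell, the best pooled rank was 13543, at a site that ranked 454 in replicate 1 and was unmatched in replicates 2 and 3. The median best rank of the list was 1758, with a median window of 10531 bp.

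Of 6 receptors of stress and detoxification, all had a pooled region, beside 90.7% of the family and 88.5% of other genes. None had a region of rank 1 to 1000, a count too small to set against 10.8% in the family and 6.55% of other genes. The closest was nhr-14, which acts in iron homeostasis, at rank 2188, and nhr-8, a receptor of cholesterol balance and xenobiotic defence, stood at 5518. The hypoxia-responsive gene nhr-57 had a best rank of 6283. The median best rank was 6235, with a median window of 8221 bp.

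Between them the lists hold 31 nhr- genes, of which 6 had a region of rank 1 to 1000 (19.4%) and none a reproducible peak. Of the 238 in no list, 23 had one (9.66%) and 4 had a reproducible peak. A reproducible peak lay at 1.49% of the family and 1.19% of other protein-coding genes, shares at which 31 genes may well hold none. The 4 genes with a reproducible peak, and nhr-46, were outside the lists of better-known receptors, and nothing is read from this. Median windows were 10030 bp in the lists and 7181 bp outside them. The part of window length in the difference between 19.4% and 9.66% was not tested.

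The family is unevenly spread over the genome, with 167 of 269 genes on chromosome V and 23 on X. On X, 6 of the 23 nhr- genes had a region of rank 1 to 1000, or 26.1% (interval 10.2 to 48.4), against 9.64% of the 2708 other genes of that chromosome. They were nhr-35, nhr-32, nhr-255, nhr-48, nhr-17 and nhr-3. On V it was 9 of 167, or 5.39% (interval 2.49 to 9.98), against 4.64% of the other genes there. Among these 9, nhr-84 and nhr-102, nhr-42 and nhr-107, and nhr-124 and nhr-159 share their region in pairs, which the interval ignores. None of the 167 nhr- genes on V had a reproducible peak, against 49 of the 4827 other genes there. At so low a share 167 genes may hold none. The best ranked nhr- genes on V were nhr-84 and nhr-102 at rank 470. The shares on I, II, III and IV were 13%, 20%, 25% and 18.2% of 23, 15, 8 and 33 nhr- genes. Those of the other genes were 7.78%, 5.53%, 7.86% and 5.73%. On all chromosomes but V, a split that drops the lowest share, a region of rank 1 to 1000 lay at 20 of 102 nhr- genes. That is 19.6% (interval 12.4 to 28.6), against 7.17% of the other genes, with median windows of 8144 bp and 7154 bp. Median windows on X were 9483 bp for nhr- genes and 7532 bp for other genes, and 7146 bp and 6715 bp on V.

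**Figure D5:**
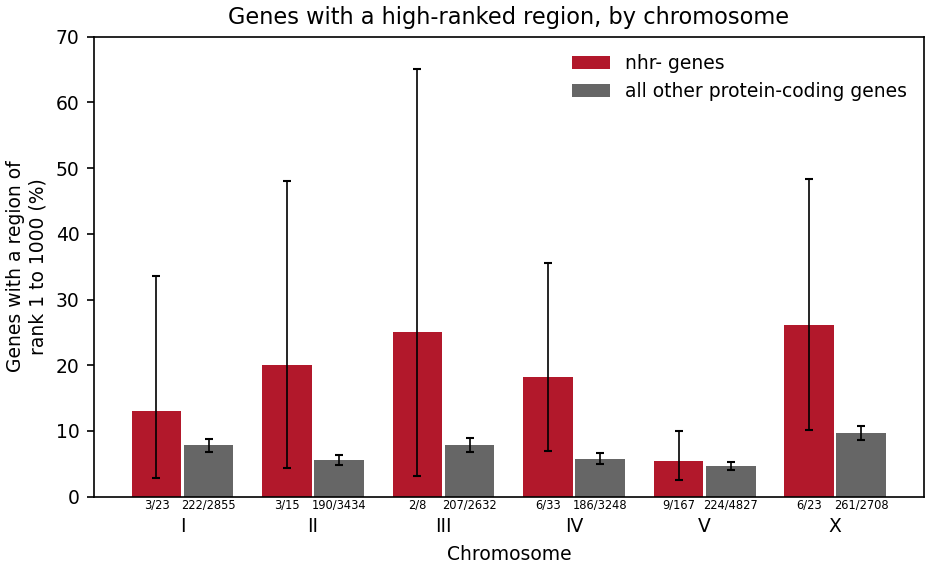
Percentage of genes with a pooled region of rank 1 to 1000 in the window, by chromosome, for nhr- genes (red, left bar) and all other protein-coding genes (grey, right bar). Error bars are exact 95% intervals over genes, and the counts are printed under the bars. The red bar is highest on X, at 26.1% against 9.64%, and lowest on V, at 5.39% against 4.64%, and the intervals of the red bars are wide.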

How the data were processed

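ChIP-seq regions were taken as deposited, in the ce11 build. Per the file headers, the authors derived the pooled regions from the alignments of all 3 replicates and a control (not analysed here), each replicate's regions from its own alignments, and the reproducible peaks from these lists by the irreproducible discovery rate. The signal of each region is the authors' deposited value on the scale of its list. Not given in the sources used here are the aligner, the caller and the reproducibility threshold. The ce10 lists were not used, since coordinates were not converted between builds.

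Regions were ranked by signal, placed by their summits and assigned with Ensembl release 115 (WBcel235). Only protein-coding transcripts gave starts. Summits within 200 bp were matched between lists. Motifs were searched within 100 bp of a summit on both strands. Intervals are exact Clopper-Pearson (95%). Alternatives varied the window, assignment, rank limit, motif distance and replicates. Assignment and motif search were tested on simulated data. The scripts used SciPy 1.17.1, pandas 2.3.3, numpy 2.4.6, matplotlib 3.10.9 and Python 3.11.15. Depth is unknown, since no read totals are given.

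The members, gene lists and hexamers were chosen with earlier results of these data known. Genes named are those with a reproducible peak, the 20 of best pooled rank, those with a top 1000 region in every replicate and members of the lists. The peak beyond the window of nhr-46, the other genes with a region of rank 1 to 1000 and the genes of the closing observations were named after their values were seen. All list members were found in the annotation.
The sequence of 1 peak is not reported here.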

Additional observations from a re-analysis of the deposited data

How the results depend on the processing

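No paired analysis was possible because the samples form 1 group. In a narrower window, 1000 bp before to 200 bp after a start, 1 nhr- gene had a reproducible peak, 8 had a region of rank 1 to 1000, 103 had any region, 5 had CACGTG at the best region, 1 had a top 1000 region in each replicate and the median best rank was 12520. These lower counts follow from the shorter window, and the shares of other genes fell too (0.482% with a reproducible peak, 2.25% with a region of rank 1 to 1000). In that window 38.3% of nhr- genes and 39.9% of other genes had any region. Of all genes, with or without a region, 1.86% and 2.05% had CACGTG at the best region. A top 1000 region in each replicate lay at 0.372% and 0.325%. With 2000 bp upstream to the gene end, 2 genes had a reproducible peak and the median rank was 8375. With the upstream part alone the median rank was 8458, and 6 genes had CACGTG (2.23% of all nhr- genes, against 3.95% of other genes). With each region given only to the gene with the nearest start, the median rank was 8616, and 24 nhr- genes (8.92%) had a region of rank 1 to 1000 against 3.48% of other genes. At rank limits of 500 and 2000 these counts were 15 (5.58%, against 3.06% of other genes) and 46 (17.1%, against 13.4%). In each replicate, the limit of 2000 gave 9 genes (3.35%, against 1.66% of other genes). Leaving out 1 replicate gave 6 to 11 genes with a top 1000 region in each of the others. These are 2.23% to 4.09%, against 1.65% to 1.84% of other genes. Requiring a match within the first 1000 regions of each of the other 2 left 3 genes with a reproducible peak in every case, without nhr-119. That is 1.12%, against 0.741% to 0.944% of other genes. The 4 genes with a reproducible peak became 5 when any overlap with the window counted, with nhr-46 (1.86%, against 1.24% of other genes). The share with a region of rank 1 to 1000 was above that of the other genes under each of the 4 changes of window or assignment and both rank limits. That with a reproducible peak was below it for the windows of 1000 and 2000 bp, at 0.372% against 0.482% and 0.743% against 0.776%.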

Other observations

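Nuclear receptor genes that carry other names were looked at in the same windows. Of daf-12, fax-1, odr-7, sex-1 and unc-55, all 5 had a pooled region and none had one of rank 1 to 1000, beside 88.5% and 6.55% of the protein-coding genes outside the nhr- family, and 5 genes are too few to set against these shares. The best was daf-12, the steroid receptor gene of dauer formation and developmental timing, with an intronic region at rank 1137 in a window of 35968 bp. That site ranked 1836, 4704 and 6605 in replicates 1, 2 and 3. The other 4 had best ranks between 10810 and 26317.

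At nhr-176, which encodes a receptor that responds to the drug thiabendazole by raising cyp-35D1, the best region of the window ranked 6186 and had cyp-35D1 itself as the nearest gene. The gene nhr-27 had the longest window of the family, 107756 bp with 33 pooled regions, and its best rank was 1810. The genes nhr-225 and nhr-256 had best pooled ranks of 4189 and 8840 but a top 1000 region in 2 replicates each, at ranks 161 and 685 in replicates 2 and 3 for nhr-225 and 422 and 727 in replicates 1 and 2 for nhr-256. These genes were chosen after their values were seen.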
